A study of Drosophila melanogaster with 2 samples.

Results

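The wing and leg disc selector genes examined here were Dll, dac, hth, exd, ap, vg, nub, salm, bi and ct, 10 of the 13945 protein-coding genes of the Drosophila melanogaster annotation. They were chosen by name. Each was searched for summits of chromatin immunoprecipitation sequencing (ChIP-seq) peaks inside the gene or within 500 bp of one of its annotated start sites. The flies carried a transgene that fuses GFP to the C terminus of the product of locus CG6854, the labels name CTPsyn (CTP synthase, an enzyme that makes the nucleotide CTP) as its target, and chromatin was recovered with an anti-GFP antibody. The material was whole prepupae of mixed sex and unknown age, in 1 group of 2 biological replicates numbered 2 and 3, so no condition could be compared with another and no test was made. The reference table gives CG6854 as an earlier name of Ctps and of CG45071, and which promoter drives the transgene was not given in the sources used here. Disc cells are only part of the animal, and the peaks do not tell in which cells a site was bound. Control libraries were not analysed here.

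Imaginal discs are epithelial sheets of the larva that turn out during the prepupal stage to form the adult legs, wings and body wall. Selector genes encode transcription factors that give groups of disc cells their identity. In the leg disc, Dll marks the distal part, dac the middle part, and hth, whose product brings the Exd protein into nuclei, the proximal part. In the wing disc, ap marks the dorsal compartment and vg the wing field itself, nub marks the wing pouch, salm and bi respond to the Dpp signal along the wing, and ct acts at the wing margin and in external sensory organs.

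The authors deposited, on build dm6, a list of 5703 peaks selected by reproducibility between replicates (IDR, the irreproducible discovery rate). Peak signal values, a score of unstated scale deposited with each peak, ran from 136.3 to 2488 with a median of 200.1. The pooled list and the list of each replicate, called with relaxed settings, held 30000 peaks each. All 5703 IDR summits were in the pooled list, where the strongest summit outside the IDR list had a signal of 136.2. A gene therefore entered the IDR list when its strongest pooled peak passed that level.

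The following windows, which reach 50 bp to either side of an IDR summit, show the sequence under the strongest summits of bi, ct, hth, nub and dac, and under the other summits of bi and hth whose window held a GAGA repeat. The letters come from the RefSeq Release 6 (dm6) genome and are written along the strand of the gene, with matches to GAGAGAG or its complement and to GCCAT in capitals. No window overlapped an annotated exon.
bi intron 2, strongest member summit, chrX:4435115-4435215, plus strand: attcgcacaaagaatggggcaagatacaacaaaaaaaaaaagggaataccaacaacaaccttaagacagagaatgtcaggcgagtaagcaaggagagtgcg
bi promoter, chrX:4426916-4427016, plus strand: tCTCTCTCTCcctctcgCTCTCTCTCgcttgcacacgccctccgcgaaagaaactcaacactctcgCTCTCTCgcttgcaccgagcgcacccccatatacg
ct promoter, chrX:7608181-7608281, plus strand: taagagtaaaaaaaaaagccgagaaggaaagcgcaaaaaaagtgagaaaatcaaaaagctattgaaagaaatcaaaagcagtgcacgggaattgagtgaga
hth promoter, chr3R:10614493-10614593, minus strand: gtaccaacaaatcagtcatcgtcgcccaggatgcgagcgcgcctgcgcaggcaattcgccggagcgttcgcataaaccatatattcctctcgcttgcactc
hth intron 8, chr3R:10535910-10536010, minus strand: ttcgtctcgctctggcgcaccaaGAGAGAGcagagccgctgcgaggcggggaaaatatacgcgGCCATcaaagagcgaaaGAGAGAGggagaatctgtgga
nub promoter, chr2L:12618188-12618288, plus strand: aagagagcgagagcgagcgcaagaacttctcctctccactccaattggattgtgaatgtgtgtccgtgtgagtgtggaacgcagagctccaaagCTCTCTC
dac intron 2, chr2L:16476761-16476861, minus strand: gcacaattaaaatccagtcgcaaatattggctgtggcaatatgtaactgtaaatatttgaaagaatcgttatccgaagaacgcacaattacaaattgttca

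Of the 10 selector genes, 6 held at least 1 IDR summit: hth, bi, ct, Dll, nub and dac. The other 4, exd, ap, vg and salm, held none. Over all protein-coding genes the share with an IDR summit was 22.9%, but the selector genes are long. Among the 4173 protein-coding genes at least as long as exd, the shortest of the 10, the share was 44.1%. A summit lay within 500 bp of a start site in 5 of the 10 genes (Dll, hth, nub, bi and ct), against 20.0% of all protein-coding genes. That share was 35.6% in genes at least as long as exd and 43.2% in genes over 40 kb. The 4 selector genes over 40 kb (hth, bi, ct and nub) all held a summit, where 56.6% of the 461 genes over 40 kb did. That limit was chosen after values were seen, and nub, at 40.5 kb, only just passed it. The 1 IDR peak of nub had no summit within 100 bp in either replicate list. Of the 5 selector genes between 10 and 25 kb, 2 held one (Dll and dac), where 51.2% of the 1167 genes of that length did. All 10 genes had a summit in the relaxed pooled list, which 51.3% of all protein-coding genes had. Of the 4173 genes at least as long as exd, 66.1% had more relaxed summits per length than salm, so at least that share held one. The relaxed share itself was not computed for genes of like length.

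**Figure D1:**
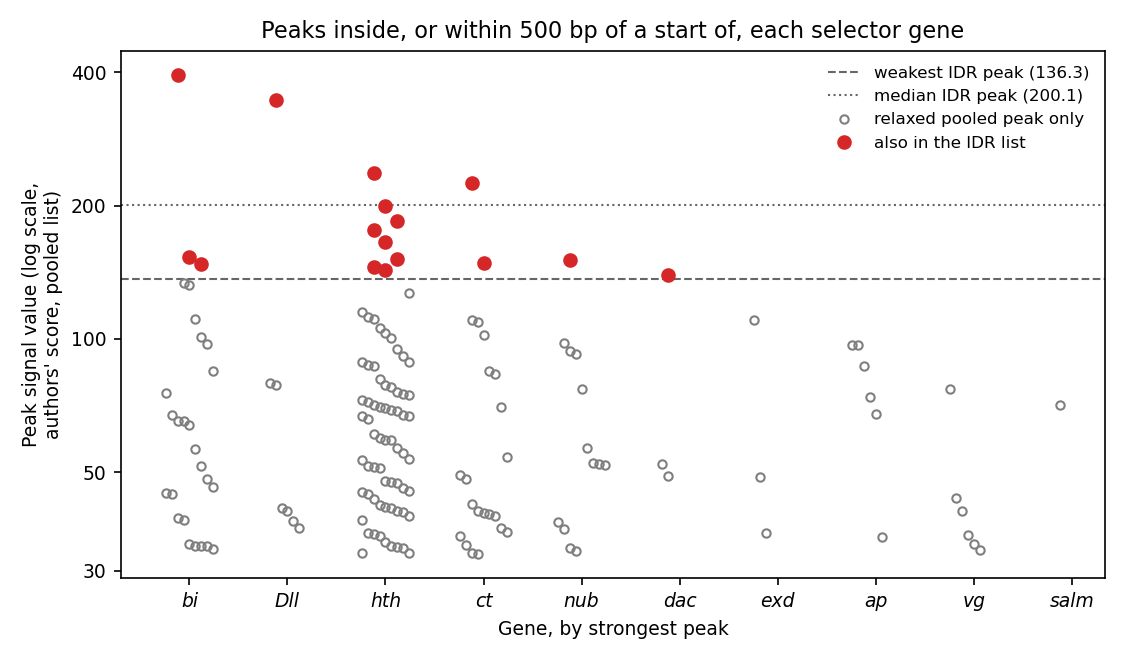
Signal value (log scale, the authors' score in the pooled list) of every peak at the 10 selector genes, red where the peak was also in the IDR list and grey where it was in the relaxed pooled list alone. bi, Dll, hth and ct had peaks above the IDR median of 200.1, nub and dac had 1 peak each just above the weakest IDR value of 136.3, and the peaks of exd, ap, vg and salm all lay below it.

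The 6 genes held 16 IDR summits between them, of which 8 were in hth. Their median signal was 159.7, below the 200.1 of the whole list, with a range of 139.7 to 394.8. A signal above 200.1 was reached by 4 of the 16, namely 1 each in bi, Dll, hth and ct. In promoters the median of the 5 member summits was 225.4, beside 204.9 over all 2930 promoter summits. Outside promoters the median of the 11 member summits was 151.6, beside 194.6 over all 2773. Without the 8 summits of hth the median of the remaining 8 was 151.9.

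Most of the summits lay in introns, and many, above all in hth, lay far from the starts. By position 14 were intronic, 2 were upstream of the gene and none was in an exon. The share in promoters was 31.2%, while 51.4% of all IDR summits lay in a promoter. The distance to the gene's nearest own start was over 5 kb for 10 summits and over 20 kb for 6, with a median of 8608.5 bp. hth carried much of this, with 1 of its 8 summits in a promoter and 5 of the 6 summits over 20 kb. Of the 8 summits of the other genes, 4 were in a promoter and 4 were over 5 kb away, with a median distance of 4113.5 bp. Peaks were 120 to 430 bp wide.

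**Figure D2:**
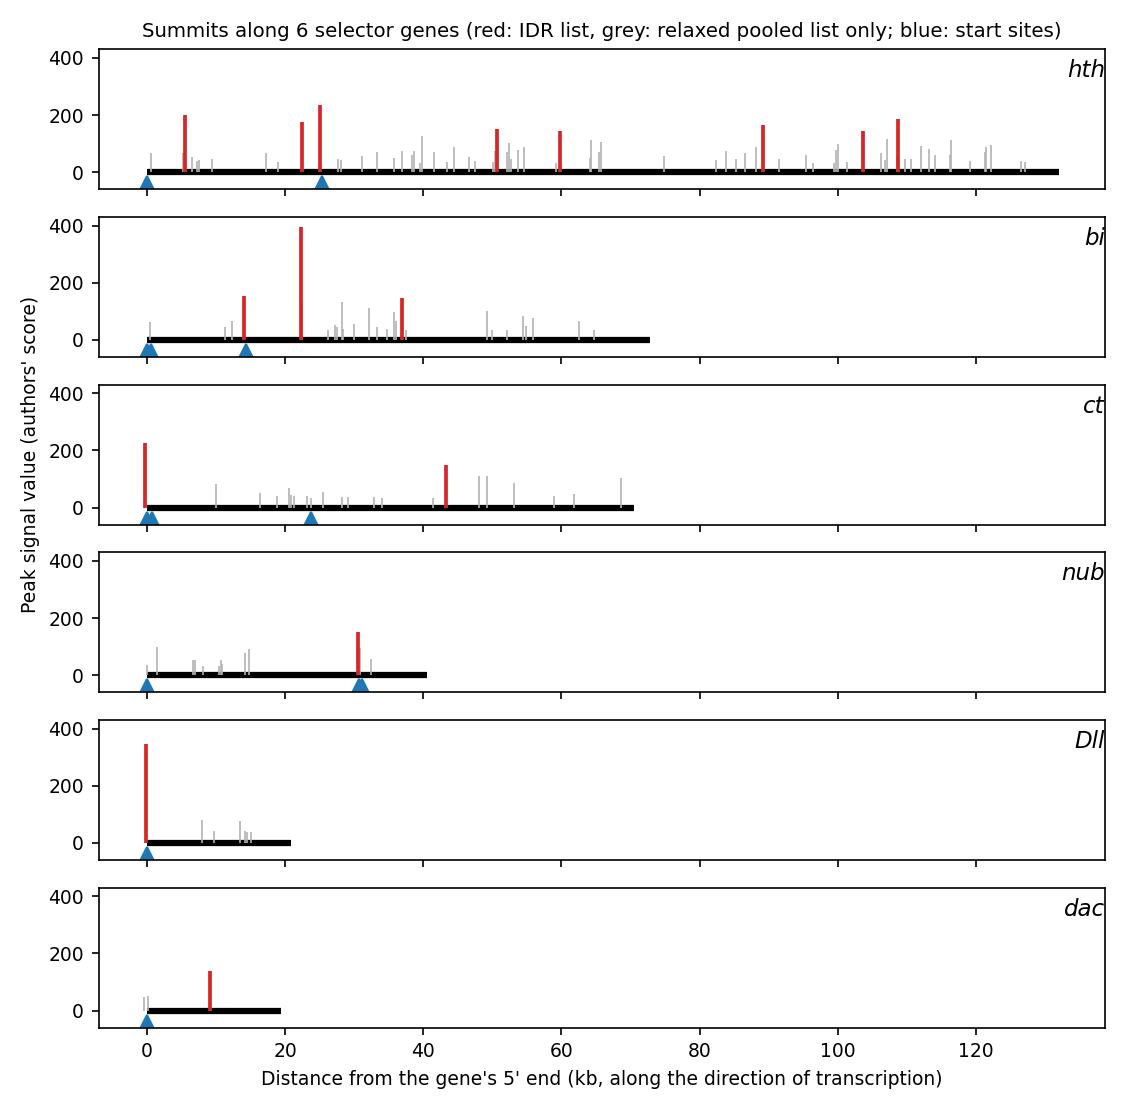
IDR summits (red) and summits of the relaxed pooled list alone (grey) along the 6 selector genes with an IDR summit, by distance from the 5′ end of the gene in kb, with bar height the signal value and blue triangles the start sites. Dll and ct had a summit just upstream of the first start, bi, hth and nub had one at a later start, and the 7 other summits of hth were spread over its introns.

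Among the leg genes, Dll, a homeobox gene, had the second strongest summit of the group. The gene (chr2R:24814822-24835667, plus strand, 20.8 kb) has 1 start site, and the peak at chr2R:24814644-24814849 had its summit 69 bp upstream of it. The signal was 345.9, rank 899 of 5703, with 141.8 in replicate 2 and 203.0 in replicate 3. It ranked 1314 and 794 in those lists, so both replicates placed it well within the strongest 5703. The other 6 relaxed summits of Dll were far weaker, at most 79.59. The window at the strong summit, of the same length as those printed above, was 65.3% G+C.

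dac encodes a nuclear protein of the Ski/Sno family and lies at chr2L:16466512-16485998 on the minus strand (19.5 kb). Its single IDR summit was in intron 2 of 10, 9.19 kb from the start, in the peak at chr2L:16476596-16477025. With a signal of 139.7 and rank 5470 it was the weakest of the 16. The replicates differed widely, with 31.1 (rank 16682) in replicate 2 and 108.4 (rank 2887) in replicate 3. The dac summit thus ranked high in replicate 3 only. At the dac start itself the pooled list had 2 relaxed summits and the IDR list had none.

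hth encodes a TALE homeodomain protein and is the longest gene of the group (chr3R:10507561-10639568, minus strand, 132 kb, 2 start sites) and held 8 of the group's 16 IDR summits in 32.4% of its summed length. Among the 4173 genes at least as long as exd, hth ranked 41 by length, and 47 of them held more IDR summits. Its 0.606 IDR summits per 10 kb compare with 0.531 over those genes and 0.338 over genes over 40 kb. The strongest was in the peak at chr3R:10614328-10614757, with its summit 267 bp upstream of the second start. There the signal was 236.7 (rank 2047), with 120.2 in replicate 2 and 122.5 in replicate 3, so the replicates gave nearly the same value.

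The next strongest hth summits lay upstream of that promoter or deep in the gene. In the 24823-bp intron upstream of the second start, a summit at chr3R:10633990-10634130 lay 5.48 kb downstream of the first start, with a signal of 199.2 and replicate values of 93.58 and 103.5. Another summit of the same intron, at chr3R:10616884-10617313, lay 2.82 kb upstream of the second start, with a signal of 176.5 and replicate values of 68.86 and 107.9. Further down, the peak at chr3R:10530608-10531037 in intron 9 of 13 had a signal of 184.9, with 100.6 in replicate 2 and 75.31 in replicate 3. This was 1 of only 2 group summits with the higher value in replicate 2. The other, singled out after its values were seen, was the intron 5 summit at chr3R:10588764-10588991, with 119.5 in replicate 2 and 45.65 in replicate 3. The peak at chr3R:10550151-10550580 in intron 7 had a signal of 165.9, with 69.61 and 96.3. The 3 remaining summits, in introns 5, 6 and 8, had signals of 142.9 to 151.6. Neighbouring hth summits were 2.56 to 29.4 kb apart, so they did not form a single cluster.

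hth also held 73 summits of the relaxed pooled list, 64 of that of replicate 2 and 83 of that of replicate 3. Of the 4173 genes, 9 held more relaxed pooled summits than hth, which ranked 10. Its 5.53 relaxed summits per 10 kb compare with 2.62 over those genes and 2.02 over genes over 40 kb.

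exd, which encodes a TALE homeodomain partner of Hth and is the shortest of the group (chrX:15992468-15996509, plus strand, 4.04 kb), had no IDR summit. Its strongest pooled peak, chrX:15992439-15992868, overlapped the start, with its summit in the 5′ UTR. The signal was 110.6 (rank 7868 of 30000), below the IDR level, with 60.17 in replicate 2 and 57.59 in replicate 3. The weakest of the strongest 5703 summits of each replicate had 69.63 in replicate 2 and 74.51 in replicate 3. Both exd values were thus below that point in their own list. The deposited −log10 q-value there was 3.72, beside 4.18 at each of the 16 IDR summits.

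Of the wing genes, bi, also known as optomotor-blind, a T-box gene, had the strongest summit of the group. The gene (chrX:4412856-4485647, plus strand, 72.8 kb) held 3 IDR summits, all of which also lay inside the noncoding gene lncRNA:CR32773. The strongest, in the peak at chrX:4434965-4435274, was in intron 2 of 7, 8.03 kb downstream of the third start, with a signal of 394.8 (rank 690). It had 180.9 (rank 722) in replicate 2 and 202.0 (rank 804) in replicate 3. The window of this summit, printed above, held no match to any motif searched.

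The other bi summits were weaker and uneven between replicates. The promoter summit at chrX:4426751-4427180, 169 bp upstream of the third start, had a signal of 153.4, with 39.28 in replicate 2 and 115.2 in replicate 3. Its window carried 5 partly overlapping GAGA repeats. The summit at chrX:4449551-4449980, also in intron 2 and 22.6 kb from the third start, had a signal of 147.6, with 30.97 and 116.3. Its ranks were 16756 in replicate 2 and 2478 in replicate 3, a gap of 14278 places and the widest of the group.

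ct encodes a homeodomain protein with cut repeats and lies at chrX:7608428-7678859 on the plus strand (70.4 kb, 3 start sites). Its stronger IDR summit, in the peak at chrX:7608156-7608275, was 197 bp upstream of the first start. The signal was 225.4 (rank 2248), with 92.72 in replicate 2 and 131.3 in replicate 3. The other, at chrX:7651553-7651982 in intron 2 of 6, lay 43.5 kb further on with a signal of 148.3. There replicate 2 gave 36.58 (rank 13924) and replicate 3 gave 101.4 (rank 3302). As in dac and bi, a weak intronic ct summit was supported mainly by replicate 3.

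nub encodes a POU homeodomain protein (chr2L:12587625-12628135, plus strand, 40.5 kb). Its single IDR peak, chr2L:12618023-12618452, had its summit 107 bp upstream of the second start, and also lay inside Ref2, a gene on the opposite strand. The signal was 150.4 (rank 4863). It was the only one of the 16 with no summit within 100 bp in a replicate list. The nearest summit of replicate 3, with a signal of 78.08, was 118 bp away, and replicate 2 had none within 1000 bp.

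ap, a LIM homeobox gene (chr2R:5706202-5727525, minus strand, 21.3 kb), had 6 relaxed summits and none in the IDR list. The strongest pooled peak of ap, chr2R:5710975-5711404 in an intron, had a signal of 97.14 (rank 9435), with 49.25 in replicate 2 and 43.19 in replicate 3. vg encodes the coactivator of Scalloped (chr2R:12884201-12899385, plus strand, 15.2 kb). Its strongest pooled peak, chr2R:12884326-12884755 at a start, had 77.18 (rank 12646), with 44.75 and 30.17. salm, a zinc finger gene (chr2L:11434311-11445614, minus strand, 11.3 kb), had 1 pooled peak, chr2L:11445771-11446200, 372 bp upstream of its start. The signal was 71.03 (rank 13923), with 59.04 and 23.69. In all 3 genes the strongest signal was thus under the IDR level of 136.3 and close to the pooled median of 66.79 or moderately above it.

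**Figure D3:**
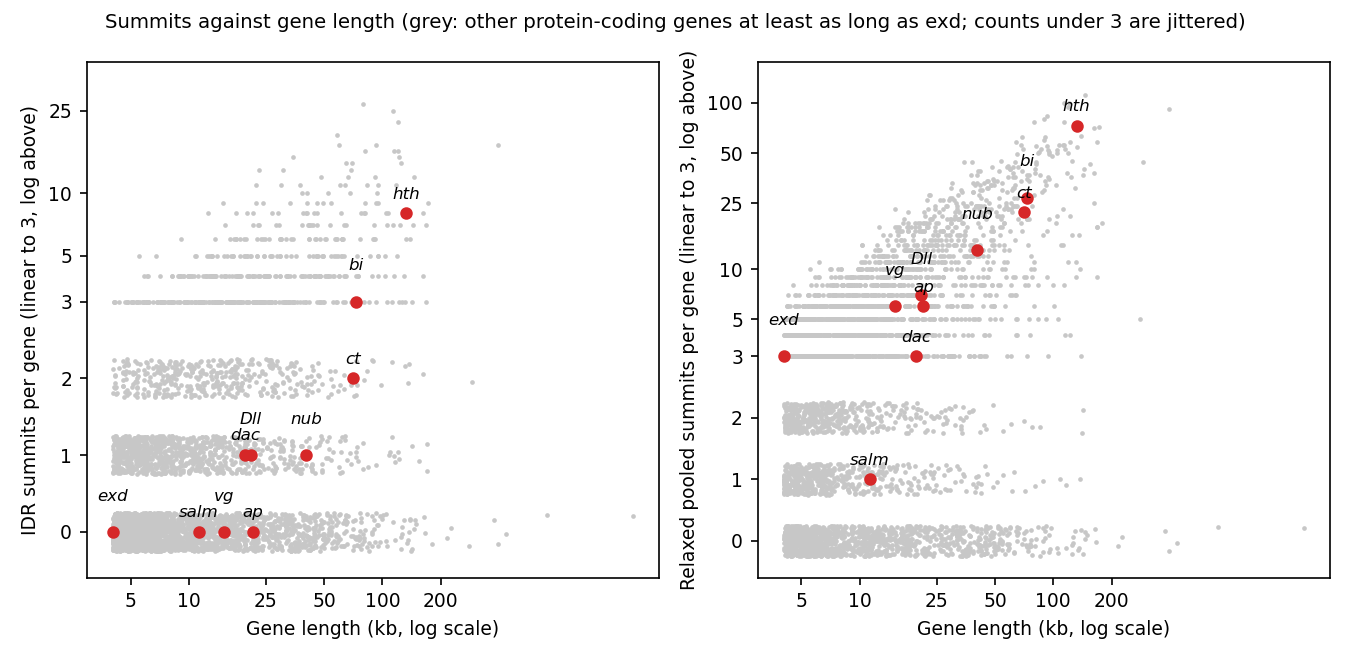
Number of IDR summits (left) and relaxed pooled summits (right) per gene against gene length in kb (log scale; counts linear to 3 and log above), with the 10 selector genes in red and the other protein-coding genes at least as long as exd in grey. hth, with 8 IDR and 73 relaxed summits, was the highest of the 10 in both panels, and exd, salm, vg and ap were at 0 on the left.

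Summed over the 10 selector genes, IDR summits per length were fewer and relaxed summits more than over other genes, but neither held in every length class. The 10 genes had 0.392 IDR summits per 10 kb, beside 0.593 over all protein-coding genes and 0.531 over those at least as long as exd. In the relaxed pooled list they had 3.95 per 10 kb, beside 2.91 and 2.62. The IDR value differed by length class, at 0.227 in the 5 selector genes of 10 to 25 kb (0.726 over all genes of that length) and 0.443 in the 4 over 40 kb (0.338 over all). The value of the 4 long genes leaned on hth, which held 8 of their 14 IDR summits. Among them hth (0.606) and bi (0.412) were above 0.338, while ct (0.284) and nub (0.247) were below it. The relaxed value was 2.61 in the 5 genes of 10 to 25 kb, below the 3.19 over all genes of that length, and 4.28 in the 4 long genes, above the 2.02 over all genes over 40 kb.

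Of the 161 relaxed pooled summits at the selector genes, 16 were in the IDR list, or 9.94% (95% Wilson interval 6.21 to 15.5%, counting error only). Over the whole pooled list the share was 19.0% (18.6 to 19.5%). Summits of 1 gene share their locus, and 73 of the 161 were in hth. In promoters of any gene the share was 5 of 17 (29.4%, 13.3 to 53.1%) at the selector genes, a wide interval, and 28.8% (27.9 to 29.6%) overall. Outside promoters 11 of 144 passed (7.64%, 4.32 to 13.2%), beside 14.0% (13.5 to 14.5%) overall. Outside promoters the observed share was lower at the selector genes. Because summits of 1 gene are not independent, these intervals do not measure the spread between genes and decide nothing about that difference. In promoters the 17 summits leave an interval too wide to compare.

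**Figure D4:**
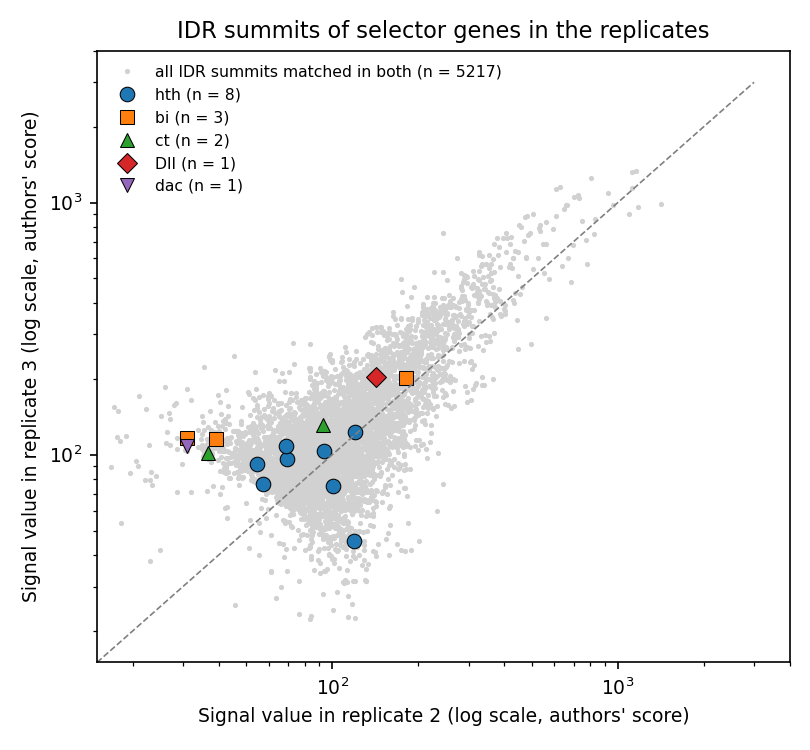
Signal value of IDR summits in replicate 2 and replicate 3 (both on log scales, the authors' score in each relaxed list), with the matched summits of hth, bi, ct, Dll and dac in colour, all 5217 matched IDR summits in grey, and the dashed line marking equal values. 13 of the 15 coloured summits lie above the line, and those of dac, bi and ct at the left edge have values of 30.97 to 39.28 in replicate 2.

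Between the replicates, 15 of the 16 summits had a counterpart within 100 bp in both lists. The value was higher in replicate 3 for 13 and in replicate 2 for 2. The lists are scaled separately, but the rank was also better in replicate 3 for 11 of the 15. Over all 5217 matched IDR summits, the value was higher in replicate 2 for 38.1% and the rank better there for 47.6%. The member median was 69.61 in replicate 2 (101.8 over all matched summits) and 107.9 in replicate 3 (109.1 over all). Among these matched IDR summits, the selector gene median was thus close to that of the rest in replicate 3 and lower in replicate 2. In the strongest 5703 summits of each replicate alone, the selector gene median was below the list median in both. It was 93.15 beside 101.3 in replicate 2, and 102.5 beside 108.9 in replicate 3. Across the 15 summits, which come from 5 genes and the same 2 libraries, Spearman's rho between replicates was 0.207, beside 0.551 over the 5217, given as a description. The 3 widest rank gaps, all in favour of replicate 3, were at bi (14278 places), dac (13795) and ct (10622).

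Motifs were sought on both strands within 50 bp of each summit. GAGAGAG, the repeat read by GAGA factor, was in 3 of 16 windows (18.8%) and in 6.21% of all IDR windows. The 3 were 1 each in hth, nub and bi. GCCAT, the core read by the Polycomb recruiter Pho, was in 2 of 16 (12.5%, 14.3% of all). TGATNNAT, a pattern of Exd with Hox partners, was also in 2 (12.5%, 4.21% of all), both in hth. AGGTCA, a nuclear receptor core, was in 1 (6.25%, 1.79% of all), which was 1 of those 2 hth windows. TGACAG, the core read by Hth, CATTCC, read by Scalloped, CAGGTAG, read by Zelda, and TATCGATA, read by DREF, were in none of the 16. These last 4 were in 2.75%, 3.73%, 0.386% and 0.491% of all windows. At least 1 of the 8 motifs was in 6 of 16 windows (37.5%), beside 30.1% of all. Median G+C was 40.1%, beside 43.6%. Some of these counts turned on the width of the window. Within 100 bp of the summit, GCCAT was in 6 of 16 windows (37.5%), above and no longer below the share of all windows (26.6%). At that width TGACAG was in 2 of 16 (12.5%, 5.61% of all), while the Scalloped, Zelda and DREF motifs were still in none.

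Among 47 further patterning genes, grouped by role, 17 (36.2%) held an IDR summit and 14 held one in a promoter. The shares with a summit and with a promoter summit were 22.9% and 20.0% over all protein-coding genes. Over genes at least as long as exd they were 44.1% and 35.6%. Median gene length in these lists was 11.2 to 15.5 kb, and 51.2% of genes of 10 to 25 kb held a summit. Of 9 paralogs and partners of the selector genes, 3 held a summit. sd, the DNA-binding partner of Vg, had 3, all in promoters, the strongest at 213.4 with 127.2 in replicate 2 and 83.8 in replicate 3. ara and caup, homeobox genes of the Iroquois complex, had 178.7 and 146.6. pdm2, a paralog of nub, had 1 relaxed summit, and salr, a paralog of salm, had none. sd was thus in the IDR list while vg was not, and nub was while pdm2 was not. The nub entry, though, rested on 1 peak with no summit within 100 bp in either replicate list.

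Of 25 other appendage patterning genes, 11 held an IDR summit. The strongest were in Doc3, a T-box gene (494.1), bun, the TSC22 homolog (468.5), rdx, a ubiquitin ligase adaptor that acts on Ci (420.6), and elB, a zinc finger gene (285.0). All 4 of these were in promoters, and the long genes rdx and bun held 14 and 12 summits. Of 9 eye selector genes 2 held one, so, a homeobox gene of the Sine oculis family, at 877.7 (rank 84) and danr at 169.6. The so summit lay 9921 bp from the start and had 437.4 in replicate 2 and 438.9 in replicate 3. Of the 4 compartment genes en, inv, ci and hh, ci held 1 summit, at 147.3. The strongest summits of so, Doc3, bun and rdx were stronger than any at the 10 selector genes.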

How the data were processed

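Peak lists on build dm6 were used. The deposited notes state that the authors called each replicate list on 1 alignment with a control, called the pooled list on both alignments, and derived the IDR list from these 3. The name of the aligner, like that of the caller, is not given in the sources used here. A peak's signal value is a score that came with each peak as deposited, on an unstated scale, and the −log10 q-value is also the authors' deposited value. Both only describe or rank peaks. The depth of the libraries is unknown. Lists on dm3 were not used.

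Summits were assigned with the Ensembl release 115 annotation to every gene that held them or had a start within 500 bp, and matched to the nearest replicate summit within 100 bp. Assignment and motif search were tested on simulated data, with 200 of 200 planted genes and 200 of 200 planted motifs found. The 10 genes had the same spans in the RefSeq table. Wilson intervals cover 95% counting error only. Python 3.11.15, pandas 2.3.3, numpy 2.4.6, scipy 1.17.1 and matplotlib 3.10.9 were used.

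The genes and lists were chosen with earlier results of these data known. Named were all 10 genes with their IDR summits (the strongest 5 of hth), up to 4 genes with the strongest summits per further list, and the 3 summits of widest rank gap. Chosen after values were seen were the length classes, the split of relaxed summits by promoter, the GAGA windows shown, and the further genes pdm2 and salr. With 1 group, no test between groups was made. The alternatives used promoter windows of 250 or 1000 bp, the stronger 2851 peaks, each replicate alone, the nearest start alone, match limits of 50 and 200 bp and motif windows that reach 100 bp to either side.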

Additional observations from a re-analysis of the deposited data

How the results depend on the processing

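The 6 genes with an IDR summit were the same under promoter windows of 250 and 1000 bp and under assignment to the nearest protein-coding start. At 250 bp, 4 genes rather than 5 had a promoter summit, and the share of all protein-coding genes was not computed there. With a match limit of 50 bp, 11 rather than 15 of the 16 summits had a counterpart in both replicate lists. At 200 bp it was 15. In the stronger 2851 peaks of the list, Dll, hth, bi and ct remained, with 3 genes with a promoter summit, 4 summits of median signal 291.3, and 9 genes of the further lists. The share of all protein-coding genes was not computed for those 2851 peaks. With the strongest 5703 summits of each replicate alone, 4 to 6 genes had a summit and 3 to 5 had one in a promoter. Of all protein-coding genes, 23.0% had a summit with replicate 2 alone and 22.6% with replicate 3 alone. The share with a promoter summit, and the shares among genes of like length, were not computed for the single replicates. The selector gene summits numbered 12 to 18 and genes of the further lists 17 to 19. The median of these selector gene summits, on each replicate's own scale, was 93.15 to 102.5, beside list medians of 101.3 and 108.9. dac and nub had none without replicate 3, and bi had 1. Assignment to the nearest start gave a median of 176.5 and 4 summits at ct. It also gave 24 rather than 17 genes of the further lists with a summit. The share of all protein-coding genes was not computed for that assignment. Within 100 bp of the summit, 62.5% of the member windows held a motif, beside 51.7% of all. The cause of these shifts was not tested.

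No paired analysis was possible because the 2 libraries form 1 group. Depth is unknown from the lists, so a gene without an IDR summit was below the list's signal level, not shown to be unbound. Reads without molecular identifiers are not independent molecules.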

Other observations

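Some strong IDR summits lay outside the genes but had ct or bi as the nearest protein-coding start. Upstream of ct, the peak at chrX:7604544-7604848, 3.73 kb from the first start, had a signal of 561.5 (rank 296 of 5703). A further one at chrX:7605800-7605948, 2.54 kb upstream, had 287.8 (rank 1341). Both were stronger than the 2 summits assigned to ct, and the first exceeded every summit inside the 10 selector genes. Upstream of bi, a peak at chrX:4391161-4391590, 21.5 kb from the nearest bi start and inside lncRNA:CR32773, had 202.6 (rank 2778).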
